A study of Mus musculus with 16 samples.

Results

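Open chromatin was examined at 10 genes of iron and heme handling in mouse liver, in each sex of 2 inbred strains, CAST/EiJ (CAST) and C57BL/6J (B6). The 10 genes were the hepcidin genes Hamp and Hamp2, Tfr2, Trf, Slc40a1, Cp, Fth1, Ftl1, Alas1 and Hmox1. DNase-seq cuts accessible DNA in nuclei with DNase I, and places where such cuts pile up are called DNase hypersensitive sites (DHS). A window ran from 20 kb upstream to 20 kb downstream of each gene, and DHS from the lists of male B6, female B6, male CAST and female CAST liver were joined into a region where they overlapped by at least 1 bp. These windows held 60 of the 51482 DHS regions of the whole genome, and 41686 of the 51482 lay within 20 kb of a protein-coding gene. The 16 libraries came from whole liver of mice 8 weeks old per the labels, 4 libraries per sex in each strain, with nuclei digested with 32 U of DNase I. The 4 libraries of a group were pooled into a single list, so there was no spread between replicates and no test of any difference between the lists. The labels name no other treatment and no engineered allele in any group.

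Hepatocytes take up iron bound to transferrin, store it in ferritin and release it through ferroportin, the iron exporter. They also secrete hepcidin, a peptide hormone that removes ferroportin from cell surfaces and so lowers iron in blood. Heme is built from a first step catalysed by 5-aminolevulinate synthase and broken down by heme oxygenase, an enzyme known for its induction by heme and oxidative stress through antioxidant response elements.

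The value given for a DHS is its fold enrichment, the number of overlapping fragments at its summit divided by the local background, with a pseudocount of 1 added to each. The number of fragments was recovered from the deposited values, and intervals in parentheses are exact 95% Poisson intervals on it, which cover counting error only. In fragments, the genome-wide background of the male lists was 15.4 for B6 and 14.3 for CAST, and that of the female lists 13.9 for B6 and 7.94 for CAST. The lowest fold enrichment called at that background was 1.90 in both male lists, 1.94 in B6 females and 2.24 in CAST females. As a check of the tissue, the promoters of the hepatocyte genes Alb, Ttr, Hnf4a and Cps1 carried a DHS in all 4 lists, that of Apoa1 in the male lists, and that of Serpina1a, a member of a multigene family, in none. None of the 5 promoters of Kupffer cell and macrophage markers and none of the 3 of T and B cell markers carried a DHS in any list. Among the endothelial markers, Stab2 had a promoter DHS in all 4 lists, Kdr in both B6 lists, and Lyve1 and Pecam1 in the male B6 list. The stellate cell marker Reln had a promoter DHS in every list but female CAST, and Lrat, Des and Pdgfrb had none. The bile duct marker Sox9 had a promoter DHS in all 4 lists, and Krt19 and Epcam had none. Of the 5 genes of red cell precursors, Klf1 had a promoter DHS in every list but male B6 and the other 4 had none. Nuclei of all liver cells were digested together, so a smaller share of nuclei with an open site and a less open site in each nucleus cannot be told apart.

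The sequences below carry the main results and are given first. Each is 300 bases of the mm9 genome centred on a DHS summit, or lying directly upstream of the start site for the hepcidin genes, read 5′ to 3′ on the strand of the gene. Capitals mark matches, on either strand, to any of 10 short motifs. These were GGCGCC (the core of the BMP response element), TGACNNNGC (the core of the antioxidant response element), TGANTCA (AP-1), TTCNNNGAA (STAT), TTGCNNAA (C/EBP), CAAAGTCC (HNF4), TGTTTAC (FOXA), CACGTG (E-box), TGACGTCA (cyclic AMP response element) and GGGGCGGGG (GC box). A stretch TGACTCAGC matches TGACNNNGC and TGANTCA at once. A match describes letters and is not evidence of binding.

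The first set shows the 4 DHS of the windows that hold TGACTCAGC or its reverse complement, which all lie upstream of Hmox1 or of a ferritin gene.
Hmox1, 9.6 kb upstream, chr8:77607714-77608013, + strand: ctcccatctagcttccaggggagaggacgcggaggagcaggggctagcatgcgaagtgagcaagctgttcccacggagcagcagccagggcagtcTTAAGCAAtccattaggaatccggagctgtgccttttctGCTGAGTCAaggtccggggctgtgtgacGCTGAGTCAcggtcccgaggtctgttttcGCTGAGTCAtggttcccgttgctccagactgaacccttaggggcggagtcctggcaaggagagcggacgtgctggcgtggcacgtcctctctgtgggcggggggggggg
Hmox1, 3.9 kb upstream, chr8:77613428-77613727, + strand: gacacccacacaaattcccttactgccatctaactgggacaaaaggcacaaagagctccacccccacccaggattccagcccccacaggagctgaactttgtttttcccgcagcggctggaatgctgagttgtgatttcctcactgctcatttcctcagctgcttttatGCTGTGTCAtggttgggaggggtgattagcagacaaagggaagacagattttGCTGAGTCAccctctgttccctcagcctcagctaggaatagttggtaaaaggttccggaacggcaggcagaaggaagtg
Fth1, 3.9 kb upstream, chr19:10053094-10053393, + strand: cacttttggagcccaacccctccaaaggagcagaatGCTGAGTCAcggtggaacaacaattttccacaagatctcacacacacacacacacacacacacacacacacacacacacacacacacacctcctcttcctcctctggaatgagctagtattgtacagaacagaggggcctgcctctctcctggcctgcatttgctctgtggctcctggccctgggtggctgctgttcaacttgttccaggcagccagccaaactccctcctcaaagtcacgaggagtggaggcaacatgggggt
Ftl1, 1.2 kb upstream, chr7:52716343-52716642, − strand: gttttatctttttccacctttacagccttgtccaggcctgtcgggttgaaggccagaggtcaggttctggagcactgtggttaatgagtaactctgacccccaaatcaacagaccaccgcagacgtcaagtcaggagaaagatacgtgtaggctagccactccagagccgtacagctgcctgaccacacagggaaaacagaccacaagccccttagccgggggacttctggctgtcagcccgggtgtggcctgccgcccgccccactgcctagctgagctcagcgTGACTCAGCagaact

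The second set shows the DHS found in both B6 lists alone, the strongest DHS in the windows of Slc40a1 and Cp, and the DHS 15.5 kb upstream of Alas1, the strongest of its window in the CAST lists.
Hmox1, 9.5 kb downstream of the start site, chr8:77626889-77627188, + strand: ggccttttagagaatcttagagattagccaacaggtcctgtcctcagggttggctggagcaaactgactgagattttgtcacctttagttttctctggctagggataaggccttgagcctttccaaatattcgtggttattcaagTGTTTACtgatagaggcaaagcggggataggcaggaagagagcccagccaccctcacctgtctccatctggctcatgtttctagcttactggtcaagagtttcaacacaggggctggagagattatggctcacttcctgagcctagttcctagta
Slc40a1, 4.7 kb downstream of the start site, chr1:45977584-45977883, − strand: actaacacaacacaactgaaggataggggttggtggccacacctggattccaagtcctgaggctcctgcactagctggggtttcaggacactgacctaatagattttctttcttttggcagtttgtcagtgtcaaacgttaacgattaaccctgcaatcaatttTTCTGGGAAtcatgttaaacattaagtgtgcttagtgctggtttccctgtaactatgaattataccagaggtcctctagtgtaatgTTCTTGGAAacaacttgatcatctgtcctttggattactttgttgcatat
Cp, 3.0 kb upstream, chr3:19853931-19854230, + strand: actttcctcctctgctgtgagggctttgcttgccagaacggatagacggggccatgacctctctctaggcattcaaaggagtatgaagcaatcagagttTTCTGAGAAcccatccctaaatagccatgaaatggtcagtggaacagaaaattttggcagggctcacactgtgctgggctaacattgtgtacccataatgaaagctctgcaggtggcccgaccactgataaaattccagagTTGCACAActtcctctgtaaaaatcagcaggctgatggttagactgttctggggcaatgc
Alas1, 15.5 kb upstream, chr9:106165767-106166066, − strand: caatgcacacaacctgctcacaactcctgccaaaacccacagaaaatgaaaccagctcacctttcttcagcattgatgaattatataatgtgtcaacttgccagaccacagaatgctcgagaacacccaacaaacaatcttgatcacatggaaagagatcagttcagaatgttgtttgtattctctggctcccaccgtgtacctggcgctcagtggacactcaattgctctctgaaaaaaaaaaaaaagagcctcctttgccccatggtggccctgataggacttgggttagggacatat

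The third set compares the bases directly upstream of the start sites of the paired hepcidin genes, where DHS were few.
Hamp, chr7:31729037-31729336, − strand: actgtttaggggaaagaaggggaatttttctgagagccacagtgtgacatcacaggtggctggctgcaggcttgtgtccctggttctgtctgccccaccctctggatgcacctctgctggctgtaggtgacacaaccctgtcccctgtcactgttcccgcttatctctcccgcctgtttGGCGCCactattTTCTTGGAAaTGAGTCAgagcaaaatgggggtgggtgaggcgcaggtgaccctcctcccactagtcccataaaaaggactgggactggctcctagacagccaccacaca
Hamp2, chr7:31709201-31709500, − strand: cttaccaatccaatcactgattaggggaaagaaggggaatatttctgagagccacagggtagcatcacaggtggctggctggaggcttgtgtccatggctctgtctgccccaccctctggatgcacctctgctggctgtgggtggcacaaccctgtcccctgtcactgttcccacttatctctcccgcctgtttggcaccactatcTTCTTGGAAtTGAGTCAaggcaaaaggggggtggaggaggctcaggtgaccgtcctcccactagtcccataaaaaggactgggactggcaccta

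TGACTCAGC was in 4 of the 60 DHS regions of the windows (6.67%) and in 410 of all 51482 (0.796%). This stretch was singled out after its matches were seen. TGACNNNGC alone was in 9 of the 60 (15%) against 13.9% of all regions, a share near the background. The Hmox1 DHS 9.6 kb upstream held 3 copies of TGACNNNGC, all of them TGACTCAGC on the opposite strand, and 36 of all 51482 regions (0.0699%) held 3 or more copies of TGACNNNGC. The Hmox1 DHS 3.9 kb upstream held 2 copies, and 1.17% of all regions held 2 or more.

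A DHS was present at 53 of the 60 regions in B6 males, 50 in CAST males, 37 in B6 females and 32 in CAST females. Their fold enrichment was close to that of each list, with a median of 3.57 against 3.49 over all DHS in B6 males, 3.31 against 3.28 in B6 females, 4.22 against 3.74 in CAST males and 4.13 against 4.06 in CAST females. Of the 60 regions, 29 (48.3%) were found in all 4 lists, against a background of 35.6% of all DHS regions and 38.1% of those within 20 kb of a protein-coding gene. That excess was absent when DHS below the median score of the 4 lists were left out, where 14 of 41 regions (34.1%) were in all 4 lists against 34.1% of all, and present with lists of equal size, at 29 of 45 (64.4%) against 47.9%. A further 9 regions (15%) were found in 3 lists, against 12.1% of all regions. There were 5 found in the male lists of both strains but in neither female list, a share of 8.33%, near the background of 9.38%. None was found in both female lists alone, where the background was 0.0622%. Only 1 region was found in both B6 lists alone, against 3.32% of all regions, and none in both CAST lists alone, against 3.62%. Another region, beside Hamp, was in the female B6 and male CAST lists. The remaining 15 (25%) were in a single list, against 35.2% of all regions, 9 of them in B6 males and 6 in CAST males, where the background was 14.2% and 15.2% of all regions.

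**Figure D1:**
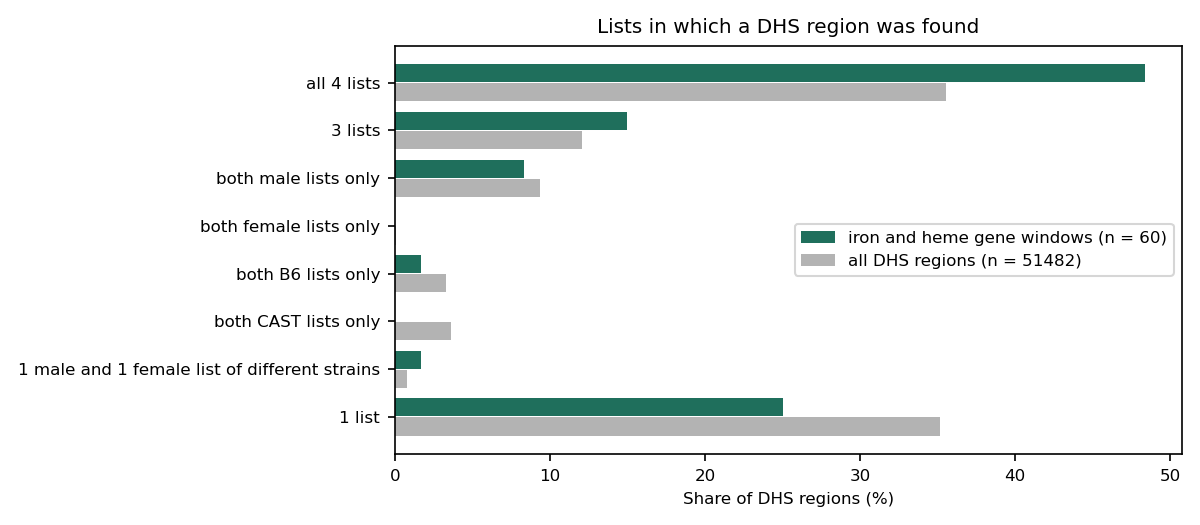
Share of DHS regions (%) by the lists in which they were found, for the 60 regions in the windows of the iron and heme genes (dark bars) and for all 51482 regions (grey bars). Regions in all 4 lists made up 48.3% of the first and 35.6% of the second, and regions in both male lists alone 8.33% and 9.38%.

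Each of the 9 regions found in 3 lists lacked a female DHS, 6 of them in CAST and 3 in B6. Over the whole genome, female CAST was the missing list for 56.7% of the regions in 3 lists and female B6 for 39.2%. When the lists were cut to the 24888 DHS of highest −log10 q in each, the size of the smallest, 1 of 45 regions of the windows (2.22%) was left in both male lists alone, against 2.29% of all regions. With the stricter threshold, the median −log10 q of all lists, there were 11 of 41 (26.8%), against 20.2%. The count of male-only regions therefore moved with list size and threshold.

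Regions were dense around 9 of the 10 genes. The windows held 0.715 regions per 10 kb at Ftl1 and up to 1.89 at Fth1, values at percentiles 77.0 and 99.4 of the 22350 protein-coding genes, whose median was 0.325. Hamp2 was the exception, with 0.239 regions per 10 kb, at percentile 43.2. Of the 60 summits, 29 were intergenic and 16 in introns. Coding exons held 5 (8.33%, against 4.45% of all regions), exons of untranslated regions 8 (13.3%, against 8.66%) and other exons 2 (3.33%, against 1.67%). Over all regions 41% of summits were intergenic, where the 60 had 48.3%, and 44.2% were in introns, where the 60 had 26.7%. Among regions within 20 kb of a protein-coding gene, these shares were 28.6% intergenic and 53.4% in introns. Among the 60 regions 13 lay within 1 kb of an annotated start site of the gene itself, 8 within 1 kb of the start site of another gene and 39 at neither. The 21 at a start site were 35% of the 60, against 27.1% of all regions and 33.1% of those within 20 kb of a protein-coding gene. Summits of the 29 regions in all 4 lists agreed closely, with a median span across the lists of 77 bp (range 16 to 333) against 91 bp over all 18309 such regions.

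**Figure D2:**
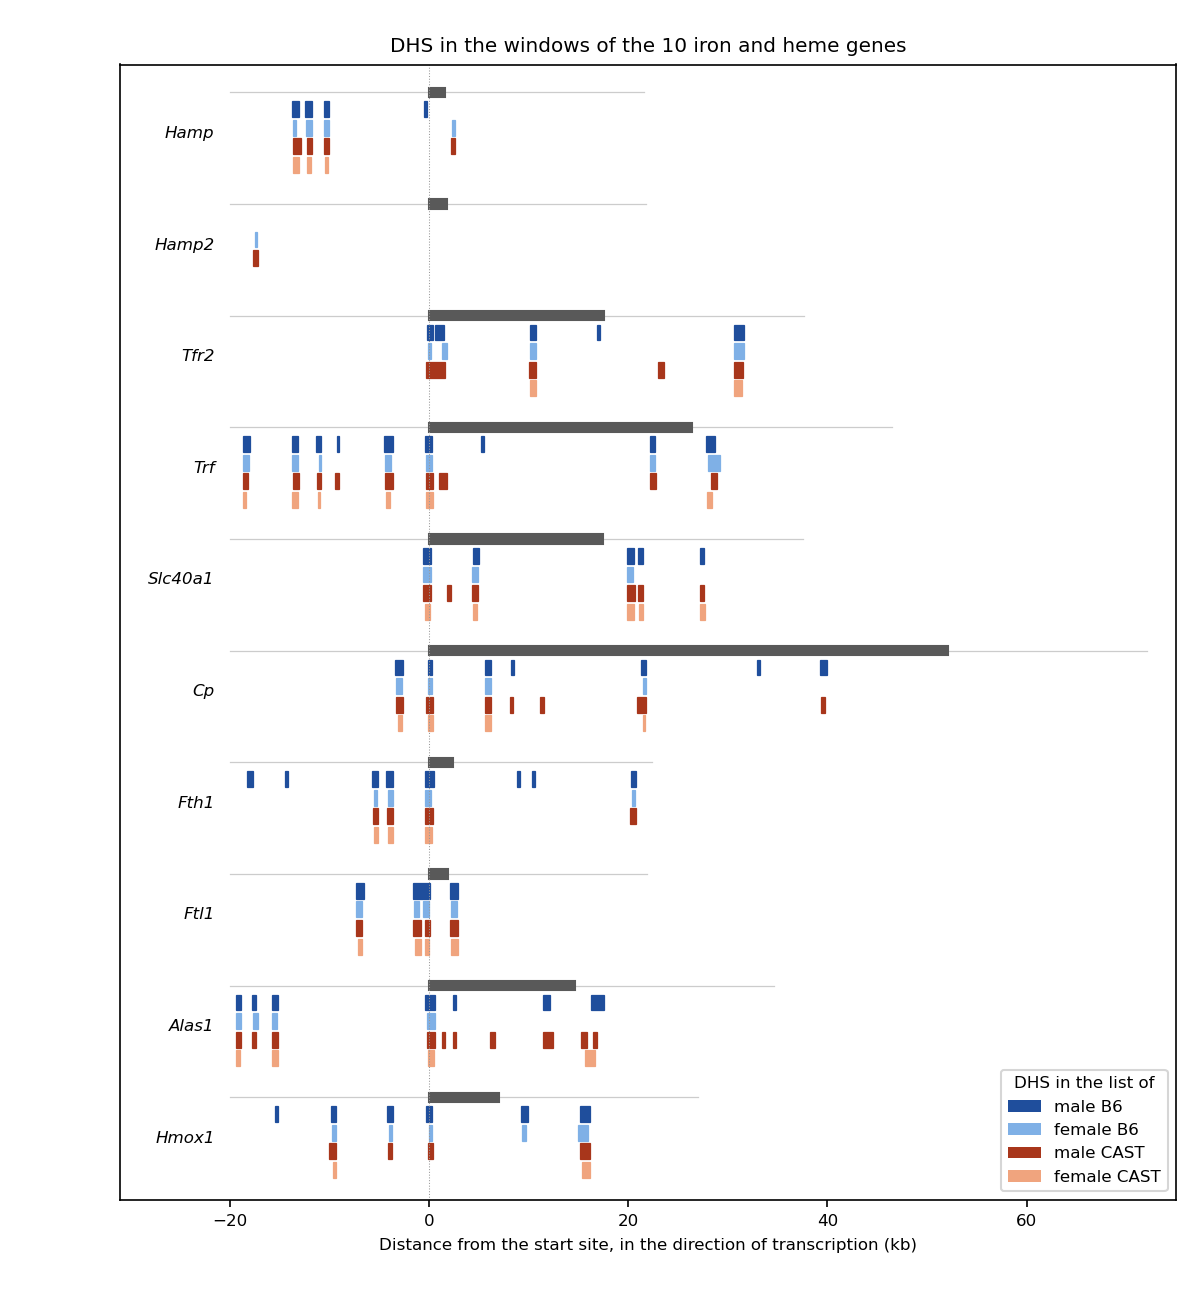
DHS of the 4 lists around each gene, by distance from the start site in the direction of transcription (kb). Dark grey bars are the genes, thin lines the windows and coloured bars the DHS at their width. Ftl1 had 3 regions, all in 4 lists, whereas Hamp2 had a single region at the edge of its window.

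A promoter DHS in all 4 lists was found for 6 of the 10 genes, Trf, Slc40a1, Cp, Fth1, Ftl1 and Alas1, where the background was 42.4% of protein-coding genes. The promoters of Tfr2 and Hmox1 carried a DHS in every list but female CAST, where the background for any 3 lists was 4.8% of protein-coding genes. The promoter of Hamp carried a DHS in B6 males alone, where the background for any single list was 3.94%, and that of Hamp2 in no list, where the background was 45.8% of protein-coding genes without a promoter DHS in any list.

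**Figure D3:**
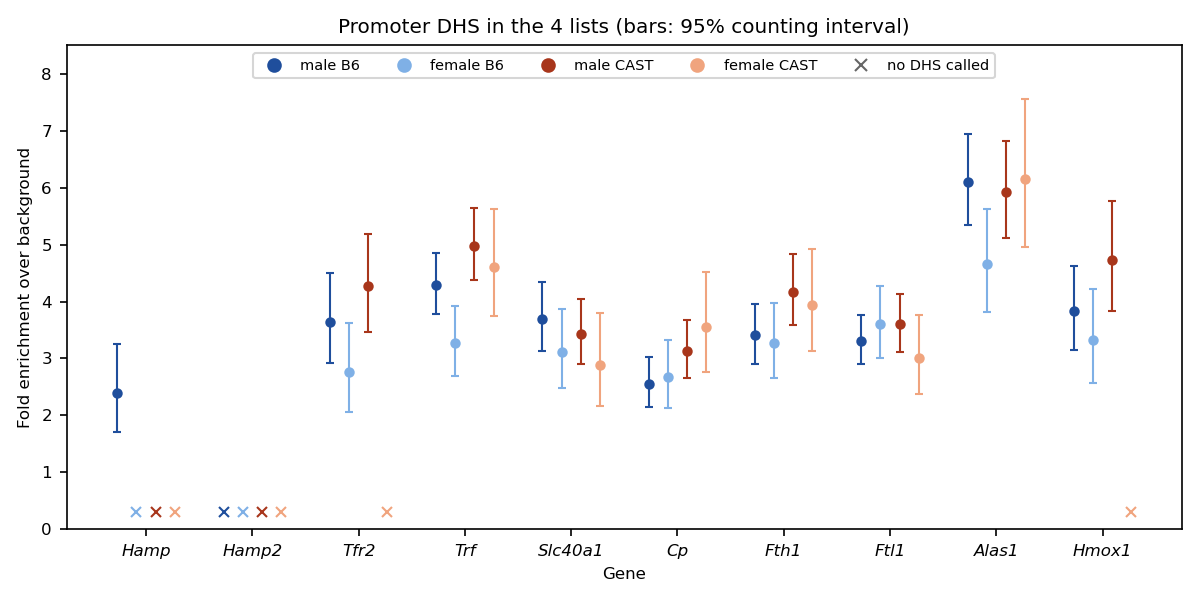
Fold enrichment of the promoter region of each gene in the 4 lists, with 95% counting intervals (bars) and crosses where no DHS was called within 1 kb. Each point is the highest DHS of a list in the region. For Ftl1 in every list but male B6, and for Tfr2 in female B6, this was not the DHS nearest the start site. Alas1 had the highest promoter values, 4.66 to 6.15, and no cross stands for a measured value.

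Hamp, the gene of hepcidin (ENSMUSG00000050440.7, chr7:31727390-31729036, − strand), had no strong DHS of its own. Its promoter DHS, 0.3 kb upstream at chr7:31729263-31729499, was called in B6 males with a fold enrichment of 2.38 (1.71 to 3.25). The value was above the lowest fold enrichment called at the genome-wide background of each of the other 3 lists, in which no DHS was called there, but the lower end of its interval was below all 3. A second DHS, 2.5 kb downstream of the start site at chr7:31726384-31726807, past the end of the gene, had a fold enrichment of 2.48 (1.76 to 3.41) in B6 females and 3.74 (2.84 to 4.83) in CAST males. No DHS was called at it in B6 males or female CAST, so the calls followed neither sex nor strain. The lower end of the B6 female interval was below the lowest value called at the genome-wide background in each list without it. The other 3 regions of the Hamp window were in all 4 lists and lay 10.2, 12.0 and 13.5 kb upstream, each within 1 kb of an annotated start site of the next gene, Usf2, which encodes a transcription factor. Their fold enrichments ran from 2.46 to 4.56 across the lists, and the DHS at 13.5 kb, the strongest in every list but female B6, had 3.62, 3.17, 4.56 and 4.51 in males and females of B6, then of CAST.

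Hamp2, the second hepcidin gene of the mouse (ENSMUSG00000056978.6, chr7:31707391-31709200, − strand), lay with its start site 19.8 kb from that of Hamp. The only region in its window was the DHS 17.3 kb upstream of it, which is the same DHS that lies 2.5 kb downstream of the Hamp start site. The paired genes were 86.9% identical over their length, gaps included. The 300 bases upstream of their start sites were 83.5% identical over 315 alignment columns, of which 22 were mismatches and 30 gaps. As printed above, these 2 stretches were offset from each other, so part of each had no counterpart in the other. The window of Hamp upstream of its start site held GGCGCC, TTCNNNGAA and TGANTCA, and that of Hamp2 held TTCNNNGAA and TGANTCA but not GGCGCC. Of all 300-base windows at DHS summits, 7.48% held GGCGCC, 10.2% TTCNNNGAA and 9.38% TGANTCA.

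Reads were kept by the authors only where they mapped uniquely, and near-identical copies lose such reads. Of the 50-base stretches within 500 bp of the start site, 93.5% at Hamp and 93.9% at Hamp2 occurred once in mm9. Around the start sites of Fth1, Slc40a1, Tfr2, Trf and Alas1 all stretches occurred once, and the share was 97.3% at Cp, 92.3% at Hmox1 and 78.8% at Ftl1, a gene with related copies elsewhere in the genome. Most of both hepcidin promoters was therefore unique at the length of a read of 50 bases, while 8 of the 35 bins of 500 bp between the genes held no unique stretch. The reads were sequenced in pairs, and the uniqueness of pairs was not analysed. Of the 60 DHS regions, 58 had at least 90% unique stretches. The promoter region of Hmox1 had 88.7%, and the lowest, 2.6 kb downstream of the Alas1 start site, had 86.2%. The part of read mapping in the absence of a DHS was not tested, and uniqueness in the CAST genome was not analysed here.

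**Figure D4:**
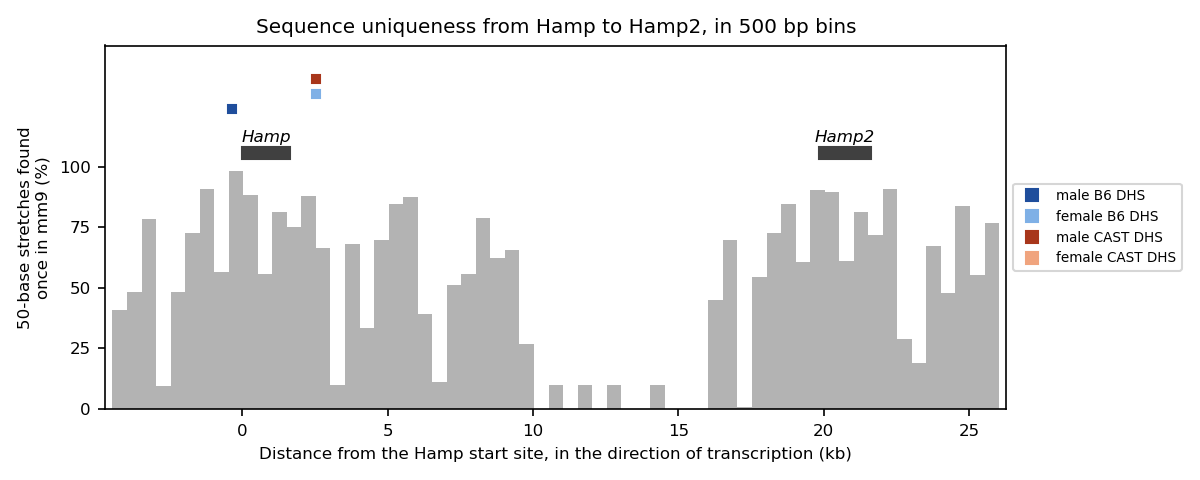
Share of 50-base stretches that occur once in mm9 (%), in bins of 500 bp, by distance from the Hamp start site in the direction of transcription (kb). Dark bars are the genes and squares the DHS summits of each list. The stretches beside the Hamp and Hamp2 start sites were mostly unique, and no DHS was called between 2.5 kb downstream of the Hamp start site and Hamp2.

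Tfr2, the transferrin receptor by which hepatocytes sense iron in blood (ENSMUSG00000029716.8, named Trfr2 in the annotation, chr5:138011079-138028709, + strand), had 5 regions. Its promoter region, chr5:138010803-138012868, had a fold enrichment of 3.64 (2.91 to 4.50) in B6 males, 2.75 (2.05 to 3.62) in B6 females and 4.27 (3.47 to 5.19) in CAST males. No DHS was called there in CAST females, whose nearest DHS was 8363 bp away. The intervals of the 3 lists overlapped, but their summits lay up to 1570 bp apart, since the female B6 list had its highest DHS inside the gene. The female B6 DHS nearest the start site, 33 bp from it, had 2.47 (1.83 to 3.27), an interval that overlapped that of B6 males and lay below that of CAST males. An intronic DHS 10.5 kb downstream of the start site, chr5:138021153-138021863, was in all 4 lists at 5.99, 4.24, 6.17 and 4.78 in males and females of B6, then of CAST. The strongest region of all 10 windows lay 31.1 kb downstream of the Tfr2 start site at chr5:138041684-138042749. It spanned the start site of the neighbouring gene Mospd3 and reached 13.5 in B6 males, 10.5 in B6 females, 16.7 in CAST males, and 10.9 in CAST females. It was the only region of the windows in the top 5% of any list.

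Trf encodes transferrin, the carrier of iron in blood, which the liver secretes (ENSMUSG00000032554.9, chr9:103106331-103132774, − strand). Its window held 10 regions, the most of any of the genes, and 6 were in all 4 lists. The promoter region, chr9:103132330-103133144, had a fold enrichment of 4.29 (3.79 to 4.85) in B6 males, 3.26 (2.69 to 3.92) in B6 females, 4.98 (4.37 to 5.65) in CAST males, and 4.61 (3.74 to 5.63) in CAST females. Female B6 was lowest, and its interval overlapped that of male B6. Upstream DHS at 4.0, 11, 13.4 and 18.4 kb were in all 4 lists. That at 13.4 kb reached 4.37, 3.33, 5.60 and 5.17, and that at 11 kb, the weakest, 2.67, 2.21, 3.24 and 2.59 in males and females of B6, then of CAST. At each of these 4 upstream DHS the male value exceeded the female value of the same strain and the CAST value exceeded the B6 value of the same sex, but the intervals overlapped in every such pair. The DHS 28.5 kb downstream of the start site lay at the promoter of Srprb and had 3.75 in B6 males, 3.71 in B6 females, 5.31 in CAST males, and 2.80 in CAST females. Its male to female ratio was 1.90 in CAST, at percentile 98.4 of all regions in 4 lists, and 1.01 in B6. A DHS 22.6 kb downstream of the start site, inside the gene, had 2.75 in B6 males, 2.82 in B6 females and 3.16 in CAST males and was missing from female CAST. A DHS 9.3 kb upstream was in the male lists alone, at 2.11 in B6 and 2.29 in CAST. The B6 value of that DHS was below the lowest value called in CAST females at the genome-wide background.

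Slc40a1 encodes ferroportin (ENSMUSG00000025993.4, chr1:45964915-45982439, − strand). Its strongest region was not the promoter but an intronic DHS 4.7 kb downstream of the start site, chr1:45977363-45978072. The fold enrichment there was 8.27 (7.42 to 9.19) in B6 males, 5.30 (4.48 to 6.23) in B6 females, 10.1 (9.15 to 11) in CAST males, and 6.42 (5.33 to 7.67) in CAST females. It stood at percentiles 91.0, 82.8, 94.4 and 81.4 of its lists, in the same order. The male value was higher than the female value in each strain with counting intervals apart, by 1.56 times in B6 and 1.57 times in CAST. Those ratios were at percentiles 80.7 and 91.4 of all regions in 4 lists. The 300 bases at its summit, printed above, held 2 matches to TTCNNNGAA, and 0.719% of all regions held 2 or more. A second DHS, 20.3 kb downstream of the start site and past the end of the gene, had 7.0, 5.03, 7.69 and 6.18 in males and females of B6, then of CAST. The promoter region, chr1:45982231-45983056, was lower, at 3.70 (3.12 to 4.35), 3.11 (2.48 to 3.86), 3.43 (2.90 to 4.04) and 2.89 (2.16 to 3.79), and these intervals overlapped. Regions 21.4 and 27.4 kb downstream of the start site were called in every list but female B6. The fold enrichments of the DHS at 21.4 kb were 3.23 in B6 males, 4.54 in CAST males and 4.90 in CAST females, all above the lowest value called in B6 females at its genome-wide background, and a female B6 DHS ended 515 bp away. The DHS at 27.4 kb had 2.88 in B6 males, 3.71 in CAST males and 2.88 in CAST females.

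Cp encodes ceruloplasmin, the copper enzyme that oxidises exported iron (ENSMUSG00000003617.10, chr3:19857054-19909145, + strand). Here too a distal DHS exceeded the promoter. The DHS 3.0 kb upstream, chr3:19853694-19854427, had 8.52 (7.66 to 9.45) in B6 males, 5.50 (4.63 to 6.48) in B6 females, 8.93 (8.01 to 9.92) in CAST males, and 7.01 (5.78 to 8.42) in CAST females. Males were higher in each strain, by 1.55 times in B6 with intervals apart and by 1.27 times in CAST with intervals that overlapped. The promoter region, chr3:19856820-19857456, had 2.56 (2.14 to 3.03), 2.68 (2.13 to 3.33), 3.13 (2.65 to 3.67) and 3.56 (2.76 to 4.51), in the same order of lists. Its male to female ratios of 0.955 in B6 and 0.879 in CAST were at percentiles 3.41 and 4.53 of all regions in 4 lists, although the intervals of the sexes overlapped. It was 1 of 2 regions, with the DHS 12.0 kb upstream of Hamp, at which the female value was the higher in both strains. Intronic DHS 5.9 and 21.6 kb downstream of the start site were in all 4 lists, and DHS 8.5 and 39.4 kb downstream of it were in the male lists alone. The first had 2.40 in B6 males and 2.09 in CAST males, and the second 2.82 and 2.36. The CAST male value of the first was below the lowest value called in CAST females at the genome-wide background.

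Fth1 encodes the heavy chain of ferritin, the iron store, whose subunit oxidises iron (ENSMUSG00000024661.6, chr19:10057193-10059582, + strand). Its promoter region, chr19:10056766-10057740, had 3.40 (2.91 to 3.96) in B6 males, 3.27 (2.65 to 3.98) in B6 females, 4.17 (3.58 to 4.83) in CAST males, and 3.94 (3.12 to 4.92) in CAST females. The sexes were nearly equal, with male to female ratios of 1.04 in B6 and 1.06 in CAST. The DHS 3.9 kb upstream, chr19:10052908-10053629, which holds TGACTCAGC on the opposite strand, had 4.03, 2.99, 4.26 and 3.32 in males and females of B6, then of CAST. The DHS 5.3 kb upstream, chr19:10051493-10052072, had 3.05 (2.54 to 3.64), 2.44 (1.88 to 3.11), 3.89 (3.28 to 4.58) and 4.53 (3.52 to 5.73), in the same order. Its CAST to B6 ratio was 1.86 in females, with intervals apart and at percentile 96.2 of all regions in 4 lists, and 1.27 in males. Males were the higher sex there in B6 and females in CAST, by ratios of 1.25 and 0.859, with intervals that overlapped in each strain. A DHS 20.4 kb downstream of the start site, chr19:10077374-10078018, in an intron of Rab3il1, had 2.62 (1.95 to 3.46) in B6 males, 2.74 (1.98 to 3.71) in B6 females and 4.62 (3.67 to 5.73) in CAST males, the highest single value of the window. No DHS was called at it in CAST females, although each value was above the lowest called there at the genome-wide background. The lower ends of both B6 intervals were below that lowest value. Of the 8 regions of the window, 4 were in B6 males alone, at 2.02 to 3.62, against the 14.2% of all regions given above.

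Ftl1 encodes the light chain of ferritin (ENSMUSG00000050708.8, chr7:52713314-52715254, − strand), and it was the only gene of the 10 whose regions, 3 in number, were all in 4 lists. The region at its promoter, chr7:52715165-52716815, had its summit 1.2 kb upstream, with 3.31 (2.90 to 3.77) in B6 males, 3.6 (3.0 to 4.28) in B6 females, 3.6 (3.12 to 4.13) in CAST males, and 3.01 (2.37 to 3.77) in CAST females. All 4 intervals overlapped. Every list but male B6 had a second DHS of the region nearer the start site, within 172 bp of it, with 3.19 (2.63 to 3.84) in B6 females, 2.59 (2.19 to 3.05) in CAST males and 2.62 (2.02 to 3.33) in CAST females. The sequence printed above is centred on the summit 1.2 kb upstream and holds TGACTCAGC once. The DHS 2.6 kb downstream of the start site, past the end of the gene, was stronger, at 4.77 (4.26 to 5.32), 4.26 (3.6 to 5.02), 6.57 (5.91 to 7.29) and 5.53 (4.65 to 6.53), in the same order. CAST exceeded B6 there in males by 1.38 times with intervals apart, and in females by 1.30 times with intervals that overlapped. The third region, 6.8 kb upstream, lay at the promoter of Bax and had values of 3.83 to 4.85.

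Alas1 encodes the enzyme of the first and rate-limiting step of heme synthesis in liver (ENSMUSG00000032786.8, chr9:106135786-106150457, − strand). Its promoter region, chr9:106149830-106150804, was the strongest promoter of the 10 genes in each list, at 6.10 (5.35 to 6.94) in B6 males, 4.66 (3.81 to 5.63) in B6 females, 5.93 (5.12 to 6.82) in CAST males, and 6.15 (4.95 to 7.55) in CAST females. The interval in B6 males lay above those of all other promoters, and the intervals of the Alas1 and Trf promoters overlapped in the other 3 lists. The DHS 15.5 kb upstream, chr9:106165549-106166202, had 4.40 (3.80 to 5.08), 3.96 (3.24 to 4.80), 6.97 (6.22 to 7.79) and 6.35 (5.32 to 7.52), in the same order. It was the only region of the windows where CAST exceeded B6 in both sexes with intervals apart, by 1.58 times in males and 1.60 times in females, where the background was 4.83% of all regions in 4 lists. Those ratios were at percentiles 94.4 and 90.4 of all regions in 4 lists. A DHS 19.1 kb upstream was in all 4 lists at 4.61, 4.04, 4.43 and 3.57 and so did not share that difference. Between them, a DHS 17.5 kb upstream had 2.72 (2.25 to 3.25) in B6 males, 2.23 (1.71 to 2.86) in B6 females and 2.55 (2.13 to 3.02) in CAST males, with none called in CAST females. Its B6 female value was below the lowest value called in CAST females at the genome-wide background. Inside the gene, DHS 2.6 and 11.8 kb downstream of the start site were in the male lists alone. The DHS at 2.6 kb had 2.87 (2.39 to 3.42) in B6 males and 2.12 (1.68 to 2.63) in CAST males. Its CAST male value was below the lowest value called in CAST females at the genome-wide background. The DHS at 11.8 kb, near an annotated inner start site, had 2.88 (2.39 to 3.43) in B6 males and 3.58 (3.01 to 4.24) in CAST males, the strongest of the 5 male-only regions. Past the end of the gene, a region 16.2 kb downstream of the start site was 2.19 (1.74 to 2.72) in B6 males, 1.86 (1.45 to 2.36) in CAST males and 3.63 (2.85 to 4.56) in CAST females, with no DHS in B6 females. Its DHS summits lay up to 1813 bp apart, so these values are not of the same point. Its CAST male value was below the lowest value called in B6 females at the genome-wide background.

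Hmox1 encodes heme oxygenase 1, the inducible enzyme of heme breakdown (ENSMUSG00000005413.6, chr8:77617490-77624495, + strand). The DHS 9.6 kb upstream, chr8:77607508-77608207, with its 3 copies of TGACTCAGC, was in all 4 lists at 4.94 (4.0 to 6.03) in B6 males, 3.55 (2.67 to 4.64) in B6 females, 5.12 (4.10 to 6.33) in CAST males, and 3.91 (2.75 to 5.43) in CAST females. Males were higher in each strain, by 1.39 times in B6 and 1.31 times in CAST, with intervals that overlapped. The DHS 3.9 kb upstream, chr8:77613305-77613908, was weaker, at 3.30 (2.66 to 4.05) in B6 males, 2.39 (1.74 to 3.21) in B6 females and 2.16 (1.59 to 2.89) in CAST males, with none called in CAST females. The value in CAST males was below the lowest value called at the genome-wide background in CAST females. The promoter region, chr8:77617180-77617861, had 3.84 (3.15 to 4.63) in B6 males, 3.32 (2.57 to 4.23) in B6 females and 4.73 (3.84 to 5.77) in CAST males. No DHS was called at it in CAST females, although each of these values was above the lowest value called there at the genome-wide background. The DHS 9.5 kb downstream of the start site, chr8:77626718-77627463, lay between Hmox1 and the next gene, Mcm5. It was the only region of the 10 windows in both B6 lists alone, at 3.92 (3.08 to 4.92) in males and 3.77 (2.88 to 4.85) in females. The sexes did not differ there beyond counting error, its summits in the B6 lists lay 29 bp apart, and the nearest DHS was 5207 bp away in CAST males and 5382 bp away in CAST females. It held a match to TGTTTAC, the FOXA motif, as did 6.59% of all regions. The DHS 15.8 kb downstream, at the promoter of Mcm5, was in all 4 lists at 3.40 to 4.63.

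Across the 29 regions in all 4 lists, the male value exceeded the female value in both strains at 24 regions, the female value was higher in both strains at 2, and the direction differed between strains at 3. Over all 18309 such regions, males were higher in both strains at 81.9%, females at 1.75%, and the direction differed at 16.4%. The median male to female ratio was 1.20 in B6 and 1.20 in CAST for the 29 regions, and 1.34 and 1.20 over all regions. On this ratio scale the medians at these genes were no higher than those over all regions. No region of the windows reached a ratio of 2 in favour of males in both strains, where the background was 0.202%, and none in favour of females, where the background was 0%. CAST exceeded B6 in both sexes at 22 of the 29 regions, and at 54.4% of all regions. The median CAST to B6 ratio was 1.22 in males and 1.21 in females for the 29 regions, against 1.06 and 1.19 over all regions. Taken as percentiles within each list, the median difference in females turned to −1.55 points, near the −1.58 points over all regions. None reached a ratio of 2 in favour of CAST in both sexes, where the background was 0.737%, or in favour of B6, where it was 0.0273%. Counting intervals of the sexes were apart at 4 of the 29 regions in B6 and at 4 in CAST, with the male list the higher at each, where the background with males higher was 35.2% in B6 and 11.7% in CAST. Both strains had the intervals apart at 2 of these regions, Slc40a1 at 4.7 kb and Tfr2 at 31.1 kb, near the background of 6.6%. Intervals were apart between the strains at 3 regions in males and 2 in females, with CAST the higher at each, where the background was 11.5% and 11%.

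**Figure D5:**
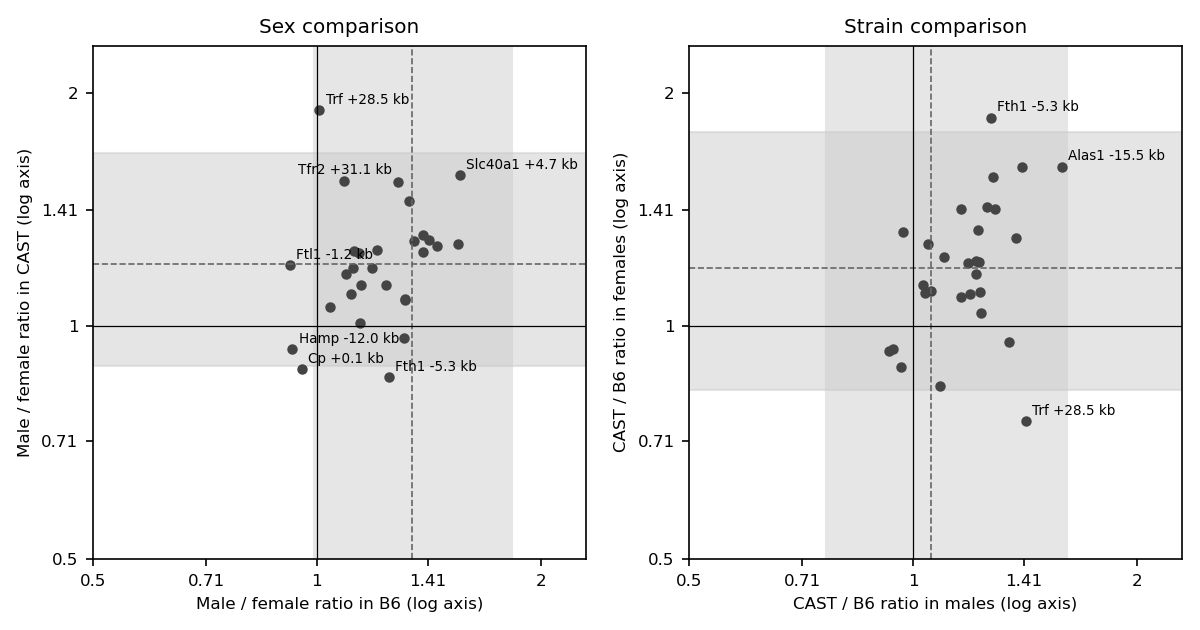
Ratios of fold enrichment at the 29 regions in all 4 lists, male to female in B6 and CAST (left) and CAST to B6 in males and females (right), on log axes. Grey bands run from the 5th to the 95th percentile of all 18309 regions, dashed lines mark their medians and solid lines a ratio of 1. Slc40a1 at 4.7 kb stands at 1.56 and 1.57 in the left panel, and Alas1 at 15.5 kb upstream at 1.58 and 1.60 in the right panel.

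The same rule was applied to 45 other genes of iron and heme handling, which were all found in the annotation. Promoter DHS were in all 4 lists for 38 of the 45 (84.4%), in some lists for 3 and in none for 4, where the backgrounds over protein-coding genes were the 42.4% in all 4 lists and 45.8% in none given above. All 7 further genes of heme synthesis and all 5 genes of iron storage and handling had a promoter DHS in all 4 lists. So did 14 of 17 genes of iron sensing and hepcidin control, 6 of 8 of heme binding and breakdown, and 6 of 8 of iron uptake and transport. The genes without a promoter DHS were Cd163, a macrophage receptor for haptoglobin and hemoglobin, Heph, an intestinal iron oxidase, Bmp6, the ligand that induces hepcidin, and Id1, a target of that ligand. Blvra and Slc39a14 lacked a promoter DHS in CAST females alone, as Tfr2 and Hmox1 did, and Bmp2 lacked it in both CAST lists. The windows of these genes held 239 regions, 104 of them (43.5%) in all 4 lists against 35.6% of all regions, 21 (8.79%) in both male lists alone against 9.38%, and 0 in both female lists alone.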

How the data were processed

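DNase-seq had been done on mouse liver nuclei in 16 libraries, 4 for each sex and strain. The authors sequenced paired reads of 50 bases and mapped unique reads with Bowtie2. B6 reads went to mm9 and CAST reads to a CAST version of mm9 converted back to mm9. The authors merged the libraries of a group and called DHS with MACS2. The deposited fold enrichment is a ratio of summit pileup to local background. The deposited −log10 p-value and the deposited score, a −log10 q-value, of each DHS refer to its own list, and the summit offset is also given. No per-sample values were used, and depth was recovered from fold enrichment and p-value, giving a whole number of fragments (within 0.02) for 99.86% to 99.96% of DHS per list.

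Overlapping DHS of the 4 lists were joined, and the highest DHS of a list stood for it in a region. Gene positions came from GENCODE annotation of mm9, and sequence from mm9. Hamp and Hamp2 were aligned globally with Biopython 1.88. Each of the 10 genes was described by its promoter region, its strongest other region, regions in 2 or more lists but not all, and regions in the top 5% of a list. Genes, lists and rules were chosen with earlier results of these data known. With 1 list per group, no test was made, and a ratio of at least 2 in both comparisons of a kind was used as a fold limit. Alternatives were other overlap and joining rules, a stricter threshold, lists of equal size and smaller windows. Joining, depth recovery, motif search and uniqueness were tested on simulated data. Python 3.11.15 with numpy 2.4.6, pandas 2.3.3 and scipy 1.17.1 was used.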

Additional observations from a re-analysis of the deposited data

How the results depend on the processing

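No paired analysis was possible because each group had a single pooled list, which also left no replicate to omit. The 60 regions became 26 with the gene and 2 kb upstream alone, and stayed between 41 and 62 otherwise. Regions in all 4 lists numbered 29 of 60 (48.3%, against 35.6% of all regions), 14 of 41 with the stricter threshold (34.1%, against 34.1%) and 10 of 26 with the smallest window (38.5%, against 35.6%), so the excess over all regions was not seen with the stricter threshold. With lists of equal size it was 29 of 45 (64.4%, against 47.9%). Male-only regions numbered 11 with the stricter threshold (26.8%, against 20.2% of all) and 1 with lists of equal size (2.22%, against 2.29%), where the count was 5 (8.33%, against 9.38%). B6-only regions numbered 0 with the stricter threshold, 2 with equal lists and 0 with the smallest window, against 1, and CAST-only regions 1 with equal lists, against 0. Divided by the median of all regions, the median male to female ratio was 0.898 in B6 and 0.996 in CAST, which turned its direction, and the CAST to B6 ratio 1.15 in males and 1.02 in females. As a difference of percentiles within the list, these were 5.74, 11.9, 5.55 and −1.55 points, the last turned in direction, and 7.63, 9.85, −0.25 and −1.58 over all regions. The cause of these shifts was not tested. Of 55 alternative values, 35 kept to the main value within the limits set. The second annotation entry of Trf, and leaving out Hamp and Hamp2, both added after the data were seen, left 60 and 55 regions. Whether the lower depth of female CAST bears on DHS missing there was not tested.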

Other observations

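The remaining motifs were found in the 60 windows of 300 bases at shares of 1.67% to 16.7%. AP-1 matches (TGANTCA) were in 8 of 60 (13.3%) against 9.38% of all regions. STAT matches (TTCNNNGAA) were in 10 of 60 (16.7%) against 10.2% of all regions, and HNF4 matches (CAAAGTCC) in 4 of 60 (6.67%) against 3.35%, in the Fth1, Cp and Trf windows. C/EBP matches (TTGCNNAA) were in 9 of 60 (15%) against 17.2%, and 5 of those 9 lay in the window of Cp. FOXA matches (TGTTTAC) were in 3 of 60 (5.0%) against 6.59%, E-boxes (CACGTG) in 3 of 60 (5.0%) against 7.10%, and GC boxes (GGGGCGGGG) in 4 of 60 (6.67%) against 5.37%. The cyclic AMP response element was in 1 region, at the Mcm5 promoter beside Hmox1, against 1.02% of all regions. GGCGCC was in 5 of 60 (8.33%) against 7.48%, and 3 copies lay in the region 28.5 kb downstream of the Trf start site, while 0.179% of all regions held 3 or more.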
